A study of Mus musculus with 14 samples.

Results

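The 10 genes examined here, which the transcription factor p53 is known to switch on, were followed to day 10 of reprogramming: Mdm2, Ccng1, Bax, Bbc3, Perp, Trp53inp1, Sesn1, Eda2r, Cd80 and Gtse1. They were found by symbol among the probes of the array, taking only probes annotated with a single symbol and, per gene, the probe with the highest mean over the 14 arrays. This gave 9 of the 10 genes among 19938 genes tested. Bax was not analysed here, since no probe was annotated with its symbol alone. Cd80 had 2 probes and the others 1 each.

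The samples were MEFs, fibroblasts derived from mouse embryos, transduced with retroviruses. The SKO groups received the reprogramming factors Sox2, Klf4 and Oct4 (Pou5f1), and the control groups received green fluorescent protein (GFP) in place of the factors. From day 2 both were kept in embryonic stem cell medium containing serum, β-mercaptoethanol and the cytokine LIF, either with vitamin C at 50 µg/ml or without it. The SKO time course comprised days 3, 4, 5, 6, 8 and 10 and the GFP controls day 3 alone, each with a single array per medium, or 12 SKO and 2 GFP arrays. No condition was repeated on the same day and nothing states that the days came from separate cultures. The p-values rest on how the difference between the media varied from day to day within a single time course. Variation that both arrays of a day share is not part of that spread.

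p53 is a transcription factor that is stabilised by DNA damage and by strong growth signals, and it restrains the reprogramming of fibroblasts. Its targets fall into feedback regulators of p53, regulators of growth arrest and metabolism, and genes of programmed cell death. Mdm2 encodes the ubiquitin ligase that degrades p53, and Ccng1 encodes cyclin G1, which helps Mdm2 to do so. Trp53inp1 and Sesn1 encode stress proteins, Bbc3 encodes the death-promoting BH3-only protein PUMA, Perp encodes a membrane protein of desmosomes and apoptosis, and Eda2r encodes a receptor of the tumour necrosis factor family. Cd80 encodes a costimulatory ligand best known from antigen-presenting cells, and Gtse1 encodes a protein of the G2 and S phases that restrains p53.

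A p53 response element is built of 2 copies of a 10-base unit, the p53 decamer. Of the 10 genes, 8 had promoter windows in RefSeq (GRCm38.p6, 250 bases before to 50 after a transcription start), 12 windows in all. A single p53 decamer was present in 1 window each of Mdm2, Ccng1, Bax, Sesn1 and Gtse1, against 8.36% of 32851 windows of that length with at least 1. None of the 12 windows held 2 exact decamers, which 0.359% of all windows did. Only exact matches were searched, so whether a decamer lies beside a second, imperfect copy was not tested. The windows of Bbc3, Eda2r and Cd80 held none, which says only that these letters are not in those windows. The CCAAT box, a promoter element common in cell cycle genes, was searched as CCAAT on both strands. It was found 4 times in the Ccng1 window and 3 times in the first Gtse1 window, whereas 3 or more were present in 3.37% of all windows. Matches describe sequence and do not show that a factor binds. For members that passed between days 3 and 10, the windows that hold a decamer or several CCAAT boxes are printed, apart from the second window of Gtse1, which overlaps its first; they were chosen for these motifs, and the other windows are not shown. Both motifs are in capitals: the 10-base runs are p53 decamers, and the 5-base runs are CCAAT boxes, written CCAAT or ATTGG by strand.
Mdm2 promoter, chr10:117710709-117711008, minus strand: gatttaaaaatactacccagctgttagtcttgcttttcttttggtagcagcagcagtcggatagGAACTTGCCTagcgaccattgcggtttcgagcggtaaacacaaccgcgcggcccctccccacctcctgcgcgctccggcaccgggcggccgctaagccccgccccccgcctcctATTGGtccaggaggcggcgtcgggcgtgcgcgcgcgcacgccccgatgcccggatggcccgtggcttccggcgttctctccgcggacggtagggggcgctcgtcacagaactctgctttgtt
Ccng1 promoter, chr11:40755237-40755536, minus strand: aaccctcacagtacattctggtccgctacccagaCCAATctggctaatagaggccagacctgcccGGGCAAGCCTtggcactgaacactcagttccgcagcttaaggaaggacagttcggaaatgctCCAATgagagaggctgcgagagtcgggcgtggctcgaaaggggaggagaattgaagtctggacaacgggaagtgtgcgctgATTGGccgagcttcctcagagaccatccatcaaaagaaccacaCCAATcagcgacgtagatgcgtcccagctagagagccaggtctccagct
Sesn1 promoter, chr10:41887189-41887488, plus strand: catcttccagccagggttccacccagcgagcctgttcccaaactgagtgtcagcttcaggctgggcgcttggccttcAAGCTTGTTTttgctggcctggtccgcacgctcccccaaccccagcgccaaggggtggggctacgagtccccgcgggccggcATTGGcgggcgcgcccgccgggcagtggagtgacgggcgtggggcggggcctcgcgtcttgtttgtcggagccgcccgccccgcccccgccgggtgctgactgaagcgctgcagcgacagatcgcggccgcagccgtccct
Gtse1 promoter, chr15:85859457-85859756, plus strand: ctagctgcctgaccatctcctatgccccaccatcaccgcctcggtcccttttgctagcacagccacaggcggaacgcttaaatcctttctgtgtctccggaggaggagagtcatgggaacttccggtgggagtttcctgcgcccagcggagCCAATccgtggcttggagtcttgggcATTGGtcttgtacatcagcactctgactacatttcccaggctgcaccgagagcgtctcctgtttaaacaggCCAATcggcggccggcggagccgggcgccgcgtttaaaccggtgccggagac
The decamer began 186 bases before the start in Mdm2, 185 in Ccng1 and 173 in this window of Sesn1. The decamer of Gtse1 lay in its other window and began 9 bases after the transcription start there.

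Array medians were between 5.19 and 5.28 on the log2 scale. Pou5f1 was between 11.2 and 12.6 in SKO arrays and at 4.05 and 4.10 in GFP arrays. Fibroblast markers averaged 9.61 to 9.99 in SKO and 10.26 and 10.64 in GFP arrays. Between days 3 and 10, 9 of 14 pluripotency markers were higher and 0 lower, and 6 of 12 epithelial markers were higher and 1 lower (limma, adjusted p under 0.05), where 6.55% of all genes were higher and 5.64% lower. The second principal component, with 20.1% of the variance, set the SKO arrays of days 3 and 5 apart from those of days 4, 6 and 8, with day 10 between them. The GFP arrays, although of day 3, had scores of 5.69 and 18.3 on it, among SKO days 4, 6 and 8 (4.08 to 27.1) and not with SKO days 3 and 5 (-35.9 to -16.4), so the comparison of SKO with GFP cells on day 3 crosses this component. The comparison of SKO day 10 (-2.85 and 0.69) with SKO day 3 (-34.6 and -35.9) crosses it as well. Day 8 is therefore compared with day 4, and day 5 with day 3, beside the wider comparison. These days differ on the component too, with day 4 at 4.08 and 9.62 and day 8 at 23.7 and 19.8. Day 5 was at -24.4 and -16.4, against -34.6 and -35.9 on day 3. Of the 9 genes, 0 passed a test of this alternation over days 3 to 6 (limma, 3 at an unadjusted p under 0.05), against 12.5% of all genes (6.53% higher and 5.94% lower). The 3 were Eda2r (-0.48, adjusted p = 0.0615), Mdm2 (-0.30) and Gtse1 (0.29). Among all 19938 genes, 5350 had an unadjusted p under 0.05.

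**Figure D1:**
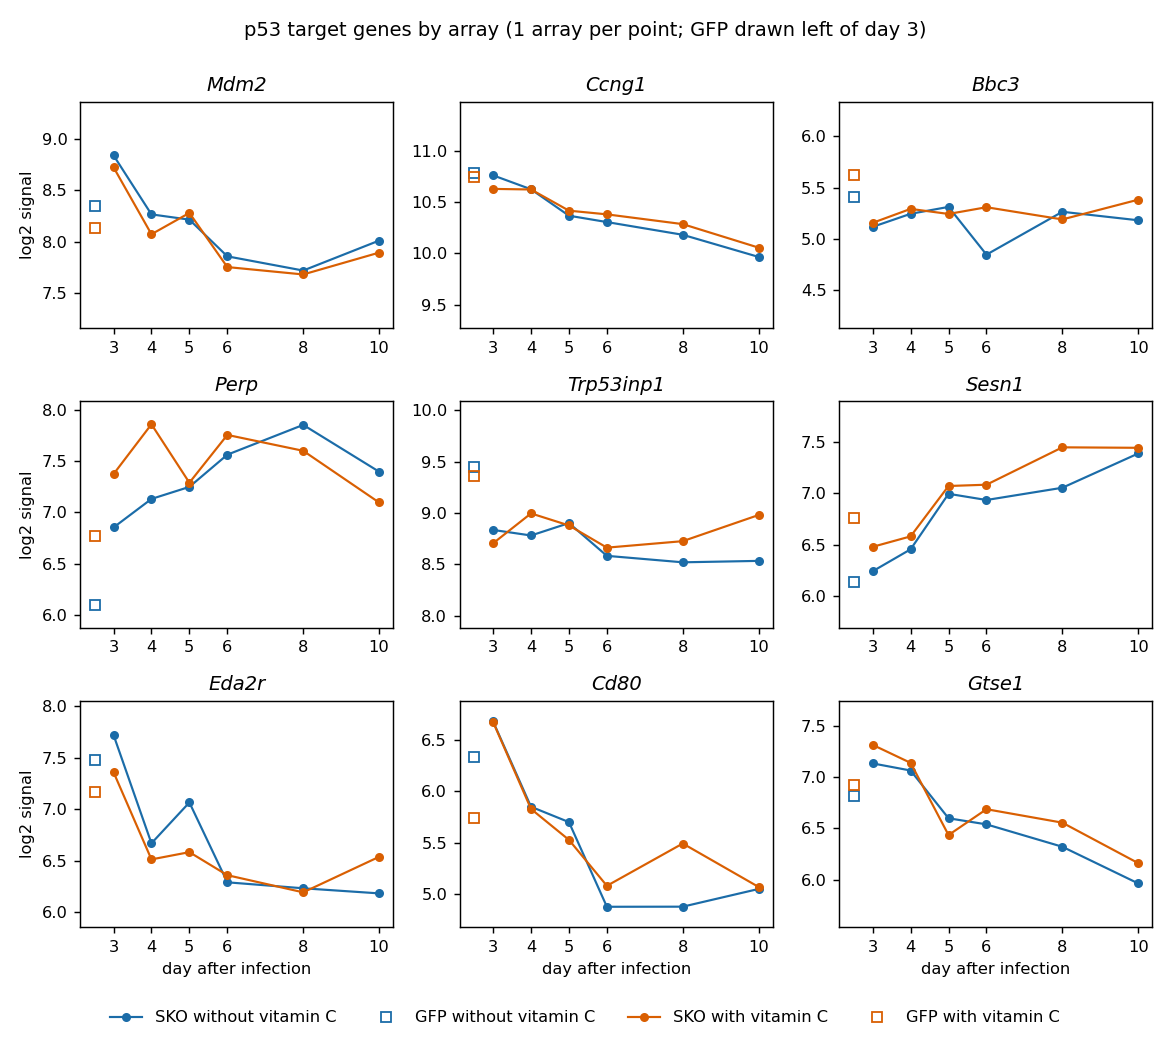
The log2 signal (vertical axis) of 9 p53 target genes is plotted against the day after infection (horizontal axis), with 1 array per point. Lines join SKO arrays with and without vitamin C, and open squares are GFP arrays of day 3. Mdm2, Ccng1, Eda2r, Cd80 and Gtse1 run downward, and Sesn1 runs upward. Bbc3 and Trp53inp1, and also Ccng1, stay within 1 unit over all 14 arrays.

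The time course asked how these genes changed as SKO cells moved from day 3 to day 10. In all, 5 fell (Mdm2, Ccng1, Eda2r, Cd80 and Gtse1), Sesn1 rose, and Bbc3, Perp and Trp53inp1 did not pass. In this comparison of 2 arrays with 2, 12.2% of all genes passed (limma, adjusted p under 0.05 over 19938 genes), 6.55% higher and 5.64% lower. With arrays centred on their medians, 42.1% of the genes called were higher, against 53.7% here, and the same counts of the 9 genes passed. The 2 pairs of arrays did not overlap for 7 of the 9 genes, as for 53.4% of all genes. The median difference of the 9 genes was -0.68 on the log2 scale, and that of all genes was -0.02.

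Mdm2, the feedback ligase, had log2 signals of 8.84, 8.27, 8.22, 7.86, 7.72 and 8.01 without vitamin C on days 3, 4, 5, 6, 8 and 10. With vitamin C the same days gave 8.73, 8.07, 8.28, 7.75, 7.68 and 7.90. Both day 3 arrays were above every later array, the lowest level was on day 8, and days 4 and 5 overlapped. Day 10 was lower than day 3, with a difference of -0.83 ± 0.14 (SE, 2 arrays against 2; 1.78-fold, adjusted p = 0.00218). Against day 4 the difference was -0.22 and did not pass (adjusted p = 0.333), so the call rests on the day 3 arrays.

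Ccng1, the cyclin G1 gene, had signals of 10.76, 10.62, 10.37, 10.31, 10.18 and 9.97 without vitamin C over the same days. With vitamin C they were 10.63, 10.62, 10.42, 10.38, 10.29 and 10.06. The mean of the 2 arrays fell at each step from day 3 to day 10, although neighbouring days such as 5 and 6 overlapped. The difference between day 10 and day 3 was -0.68 ± 0.14 (1.61-fold, adjusted p = 0.00722). It was -0.61 against day 4 (adjusted p = 0.0125). Leaving out the untreated array of day 3 or of day 10 ended the call, at adjusted p = 0.0846 and 0.0675.

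Sesn1, a stress-induced gene of the sestrin family that restrains growth signalling, went the other way. Its signals were 6.24, 6.46, 6.996, 6.94, 7.05 and 7.39 without vitamin C. They were 6.48, 6.58, 7.07, 7.08, 7.45 and 7.44 with it. All arrays from day 5 onward were above all arrays of days 3 and 4. Day 10 was higher than day 3 by 1.05 ± 0.14 (2.08-fold, adjusted p = 0.000654) and higher than day 4 by 0.90 (adjusted p = 0.00223). Its relatives Sesn2 (-0.68, adjusted p = 0.0971) and Sesn3 (0.52, adjusted p = 0.0634) did not pass between day 10 and day 3.

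Eda2r, the receptor gene of the tumour necrosis factor family, had signals of 7.72, 6.67, 7.06, 6.29, 6.23 and 6.18 without vitamin C. With it they were 7.36, 6.51, 6.58, 6.36, 6.19 and 6.54. Day 3 was highest in both media, and the range of day 10 covered both arrays of days 6 and 8. The difference between day 10 and day 3 was -1.18 ± 0.19 (2.27-fold, adjusted p = 0.00189). Against day 4 it was -0.23 and did not pass (adjusted p = 0.473). Eda, the gene of its ligand ectodysplasin, differed by 0.03 (adjusted p = 0.962).

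Cd80 had signals of 6.68, 5.85, 5.70, 4.88, 4.88 and 5.05 without vitamin C. With it they were 6.68, 5.83, 5.53, 5.08, 5.49 and 5.07. The day 3 arrays were highest, those of days 4 and 5 lay between, and days 6, 8 and 10 overlapped at the bottom. Day 10 was lower than day 3, with a difference of -1.62 ± 0.18 (3.07-fold, adjusted p = 0.000199), and lower than day 4, with a difference of -0.78 (adjusted p = 0.0153). The second Cd80 probe differed by -0.91 between the same days. Cd86, the other ligand of the same receptors, was 0.93 higher (adjusted p = 0.0275). On these arrays 12 of 16 macrophage markers, a list that includes Cd86 itself, were higher on day 10 and 0 lower. Among all genes, 6.55% were higher and 5.64% lower. Their mean log2 signal was 4.34 and 4.48 on day 3 and 5.72 and 5.54 on day 10. Whether macrophages were present, and what part they would have in the Cd80 and Cd86 values, was not tested.

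Gtse1, the gene of G2 and S phase, had signals of 7.13, 7.06, 6.60, 6.54, 6.32 and 5.96 without vitamin C. With it they were 7.31, 7.14, 6.44, 6.69, 6.56 and 6.16. The arrays of days 3 and 4 were above all later arrays, and day 10 was lowest in both media. Day 10 was lower than day 3, with a difference of -1.16 ± 0.15 (2.23-fold, adjusted p = 0.000414) and lower than day 4, with a difference of -1.04 (adjusted p = 0.00116). Genes of G2 and mitosis moved on the same arrays, with 29 of 29 lower on day 10, a median of -0.92, and values such as Cdca8 (-1.29), Prc1 (-1.27), Bub1 (-1.26) and Tpx2 (-1.25). Among all genes, 5.64% were lower and 6.55% higher, and of 21 DNA replication genes 14 were lower and 0 higher. In bulk RNA, fewer dividing cells and less of these transcripts per cell cannot be told apart.

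The other 3 genes did not pass between day 10 and day 3. Bbc3, the PUMA gene, lay between 4.85 and 5.38 in the 12 SKO arrays and differed by 0.14 (95% interval -0.21 to 0.50, adjusted p = 0.666). Perp had signals of 6.85, 7.13, 7.25, 7.56, 7.85 and 7.40 without vitamin C and 7.37, 7.86, 7.29, 7.75, 7.60 and 7.10 with it, so that the untreated arrays peaked on day 8 and the treated ones on day 4. It differed between day 10 and day 3 by 0.13 (-0.37 to 0.64, adjusted p = 0.800). Trp53inp1 lay between 8.52 and 8.995 and differed by -0.01 (-0.37 to 0.34, adjusted p = 0.977). In a test of any difference between the 6 days, the same 6 genes that passed above passed again and these did not (adjusted p = 0.819, 0.265 and 0.580), with 18.9% of all genes called. That test uses the same arrays.

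**Figure D2:**
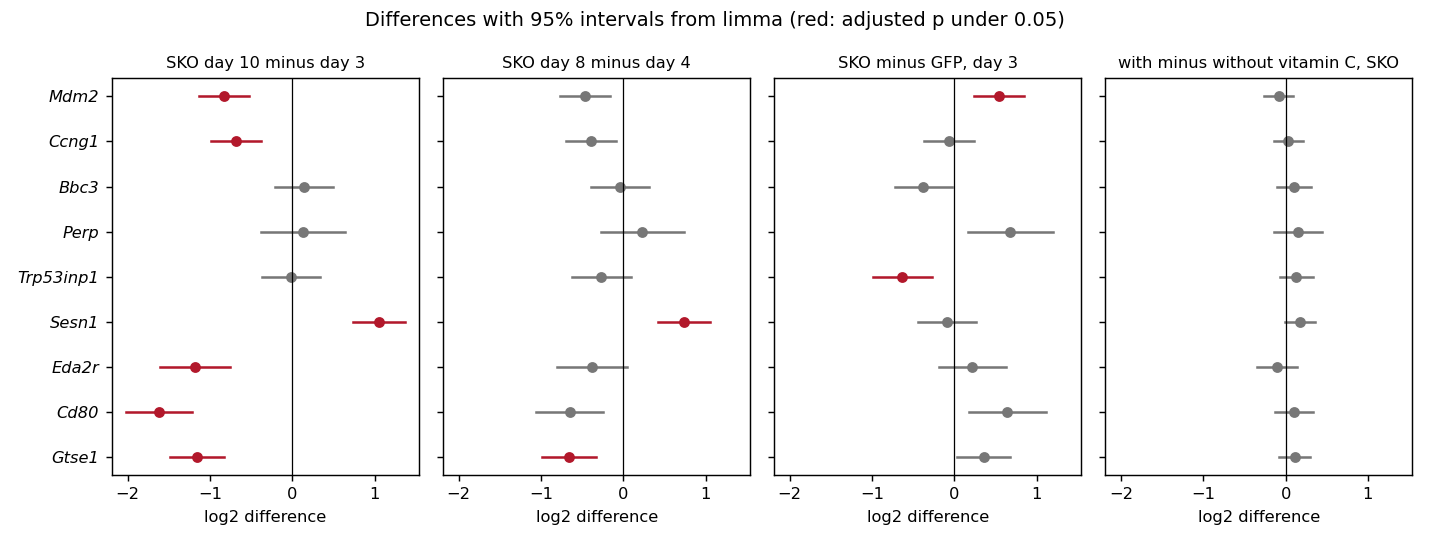
Log2 differences (horizontal axis) of the 9 genes are shown for 4 comparisons, with points for the estimate, bars for its 95% interval and red for an adjusted p under 0.05 in limma. In the first panel 5 genes lie below 0 and Sesn1 above it in red, and in the last panel all 9 intervals cross 0.

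Part of the change was present by day 5. Between days 5 and 3, a comparison added after the day means were seen, Cd80 differed by -1.06 ± 0.18 (adjusted p = 0.0162), Gtse1 by -0.71 ± 0.15 (adjusted p = 0.0424) and Sesn1 by 0.67 ± 0.14 (adjusted p = 0.0454). Mdm2 (-0.54), Eda2r (-0.72) and Ccng1 (-0.30) did not pass. The share of all genes called was 1.39%, 1.11% higher and 0.281% lower. The pairs did not overlap for 8 of the 9 genes, Perp being the exception, as for 46.6% of all genes. Each of the 3 calls was lost when any of the 4 arrays was left out. The Sesn1 call was also lost under median centring (0.64, adjusted p = 0.0607), and Mdm2 passed when the 6646 genes of lowest mean signal were left out (adjusted p = 0.0441). From day 5 to day 10, 0 of the 9 genes passed (limma), where 1.73% of all genes were called. At an unadjusted p under 0.05 there were 5 of the 9, a count not taken for all genes. The differences were -0.55 for Cd80, -0.47 for Eda2r, -0.45 for Gtse1, -0.38 for Ccng1, 0.38 for Sesn1 and -0.30 for Mdm2.

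Within the other set of days, day 8 was compared with day 4, with 2.34% of all genes called (1.85% higher and 0.492% lower). Sesn1 was higher on day 8 by 0.73 ± 0.14 (adjusted p = 0.0265) and Gtse1 lower, at -0.66 ± 0.15 (adjusted p = 0.0412). Cd80 (-0.65, adjusted p = 0.100), Mdm2 (-0.47, adjusted p = 0.117), Ccng1 (-0.39, adjusted p = 0.194) and Eda2r (-0.38, adjusted p = 0.363) did not pass, although their 2 arrays of day 8 were each below both arrays of day 4. Pairs of arrays failed to overlap in this comparison for 42.2% of all genes. The second Cd80 probe differed by -0.26 between these days. Without single arrays the count of calls was 0 or 1: 0 without either day 4 array or the treated day 8 array, and 1, Sesn1, without the untreated day 8 array. With an intensity trend in the variances Mdm2 passed too (adjusted p = 0.0467).

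Other p53 targets, from a list of 40 genes of which 38 were measured, were set beside the 9. Between day 10 and day 3, 17 of the 38 fell and 2 rose, with a median of -0.50, where 5.64% of all genes fell and 6.55% rose. The largest falls were in Epha2, an ephrin receptor gene (-1.12 ± 0.15, adjusted p = 0.000601), Polk, a translesion DNA polymerase gene (-1.04), Tnfrsf10b, a death receptor gene (-0.97), and Plk2, a polo-like kinase gene (-0.96). Pltp (0.85) and Gadd45a, a growth arrest gene (0.69, adjusted p = 0.0442), rose. Among genes of cell death, Apaf1, the apoptosome scaffold, fell by 0.68 on the log2 scale and Pmaip1, which encodes NOXA, by 0.63. Apaf1 was also among the 3 genes whose profile over the 14 arrays was most like that of Eda2r (Pearson r = 0.93). Ckap2, Psrc1 and Cdc25c, which fell as well, are also genes of cell division. Of 38 genes, 3 fell and 0 rose between days 4 and 8, where 0.492% of all genes fell and 1.85% rose: Pmaip1 (-0.88), Plk2 (-0.69) and Epha2 (-0.69). These 3 were not refitted with single arrays left out, which ended both calls among the 9 genes in 3 of 4 fits and the Gtse1 call in the other. Regulators of p53 and its family gave 2 higher (Trp63 and Bcl6) and 1 lower (Chek2, -0.61) of 25 between days 3 and 10, with Mdm4, the Mdm2 relative, at 0.22 (adjusted p = 0.535). These 3 of 25 are near the 12.2% called among all genes. In a list of 18 genes of the BCL2 family, the apoptosome and other cell death factors, 5 fell and 1 rose, against the same 5.64% and 6.55% of all genes. Among the 5 were Cycs (-1.17), Bak1 (-0.92) and Birc5 (-0.84). Birc5, an inhibitor of apoptosis, is also a gene of cell division.

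**Figure D3:**
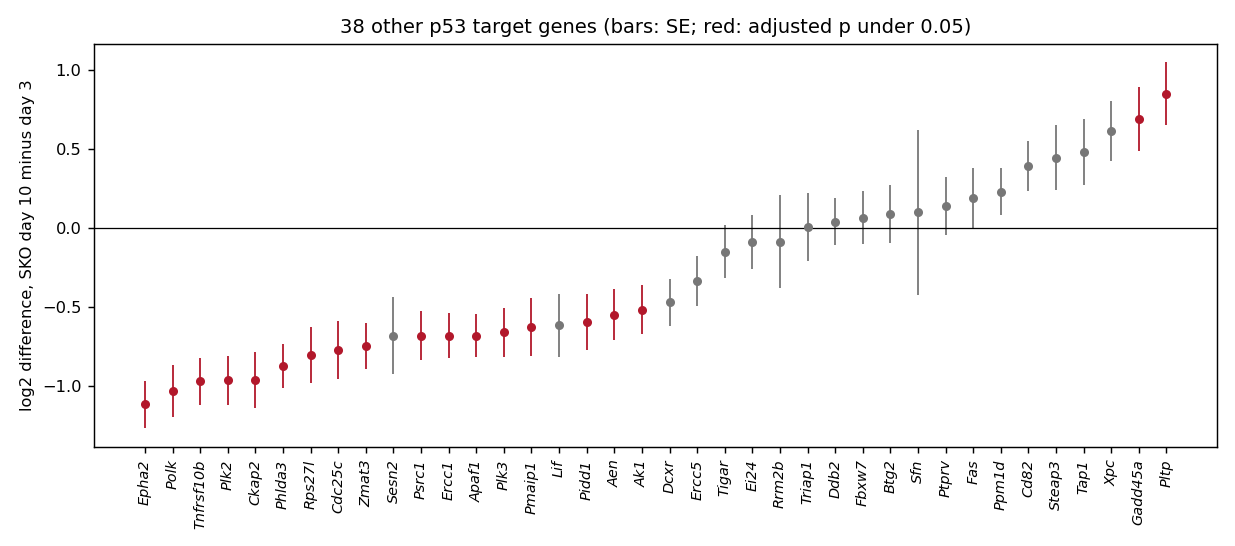
The log2 difference between day 10 and day 3 of the SKO cells (vertical axis) is plotted for 38 other p53 target genes, ordered by value, with SE bars and red points for an adjusted p under 0.05. The values run from -1.12 (Epha2) to 0.85 (Pltp), with 17 red points below 0 and 2 above.

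**Figure D4:**
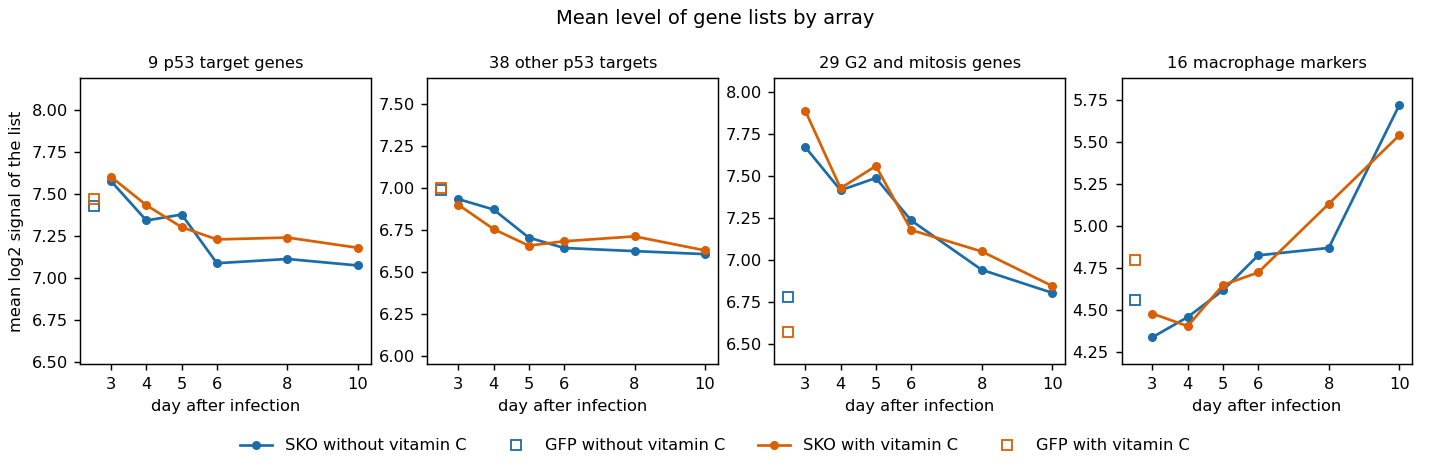
The mean log2 signal (vertical axis) of the 9 genes, of 38 other p53 targets, of 29 G2 and mitosis genes and of 16 macrophage markers is plotted against the day (horizontal axis) for each array. The first 3 lists are highest on day 3 among the SKO arrays, and the macrophage markers are highest on day 10.

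The mean of the 9 genes went from 7.58 and 7.60 on day 3 to 7.07 and 7.18 on day 10, and that of the 38 other targets from 6.93 and 6.90 to 6.61 and 6.63. In GFP cells the other targets stood at 6.989 and 6.999, above every SKO array. The mean of the 9 genes was 7.43 and 7.47 in GFP cells, below both SKO arrays of day 3. The G2 and mitosis genes were also lower in GFP than in SKO cells on day 3, at 7.67 and 7.89 in SKO and 6.78 and 6.57 in GFP cells.

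The GFP controls allowed the effect of the factors to be examined on day 3. Mdm2 was higher and Trp53inp1 lower in SKO cells, and the other 7 genes did not pass, with 17.6% of all genes called (9.22% higher and 8.43% lower). The pairs of arrays did not overlap for 6 of the 9 genes, 4 higher and 2 lower, as for 56.3% of all genes. Mdm2 was at 8.84 and 8.73 in SKO and at 8.35 and 8.14 in GFP cells, without overlap, a difference of 0.54 ± 0.14 (1.46-fold, adjusted p = 0.0183). Trp53inp1, whose product promotes cell death and autophagy, was at 8.83 and 8.70 against 9.45 and 9.36, a difference of -0.63 ± 0.17 (1.55-fold, adjusted p = 0.0180). In a list of 11 relatives of the members, 3 were lower, 0 higher and 8 did not pass, beside the shares of all genes above. The 3 were Trp53inp2 (-0.76) and the sestrin genes Sesn2 (-1.11) and Sesn3 (-1.17). Sesn1 itself differed by -0.09 (adjusted p = 0.773).

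Perp was at 6.85 and 7.37 in SKO and 6.10 and 6.77 in GFP cells, a difference of 0.68 (95% interval 0.16 to 1.19, adjusted p = 0.0699). Of 10 desmosome genes 3 were higher in SKO cells, Dsc2 (1.55), Dsp (1.27) and Pkp4 (0.87), and 0 lower. Among all genes, 9.22% were higher and 8.43% lower in this comparison. Cd80 was at 6.68 in both SKO arrays and at 6.33 and 5.74 in GFP cells (0.64, adjusted p = 0.0593). The second Cd80 probe, which was not used in the tests, differed by 0.15. Perp and Cd80 passed when the 6646 genes of lowest mean signal were left out (adjusted p = 0.0428 and 0.0351), and with an intensity trend in the variances (0.0413 and 0.0473). Cd80 also passed without the untreated GFP array (adjusted p = 0.0162). Gtse1 differed by 0.35 (adjusted p = 0.126), whereas 29 of 29 G2 and mitosis genes were higher, with a median of 1.08. Bbc3 (-0.38), Eda2r (0.22) and Ccng1 (-0.07) did not pass. Of the 38 other targets 5 were higher, such as Ckap2 (1.49), and 6 lower, such as Pltp (-1.53), Steap3 (-1.19) and Sesn2. These counts stand beside the same 9.22% and 8.43% of all genes.

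The Mdm2 call was lost without the treated GFP array (adjusted p = 0.129) and without either SKO array, and that of Trp53inp1 without the untreated GFP array (adjusted p = 0.116) or the treated SKO array. When day 4 of the SKO cells, where 7.78% of all genes passed, was set against the GFP cells, Mdm2 stood at -0.07, Trp53inp1 at -0.51 (adjusted p = 0.0832), Perp at 1.06 (adjusted p = 0.0141) and Eda2r at -0.73 (adjusted p = 0.0308). The sign of the Mdm2, Eda2r and Cd80 differences therefore depends on which SKO day is taken.

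The vitamin C comparison asked whether treated and untreated SKO cells of the same day differed in these genes. Of the 9 genes 0 passed (limma with the day as a block, 0 at an unadjusted p under 0.05), and 0.933% of all genes did (0.642% higher and 0.291% lower). The largest estimate was that of Sesn1, 0.17 ± 0.08 (95% interval -0.01 to 0.36, adjusted p = 0.465), which was higher with vitamin C on 6 of 6 days, by 0.06 to 0.39, as were 3.90% of all genes, with 3.20% lower on all 6. Perp followed at 0.15 (-0.14 to 0.45) and Trp53inp1 at 0.13 (-0.07 to 0.34). Gtse1 was at 0.11 (-0.08 to 0.30), Cd80 at 0.11 (-0.13 to 0.34), Bbc3 at 0.10 (-0.10 to 0.31) and Ccng1 at 0.03 (-0.14 to 0.21). The second Cd80 probe was at -0.09. Mdm2 was at -0.08 (-0.26 to 0.09), lower on 5 of 6 days, and Eda2r at -0.10 (-0.35 to 0.14). The 9 intervals together span -0.35 to 0.45.

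Single days differed more than the means. Perp was higher with vitamin C by 0.52 and 0.73 on days 3 and 4 and lower on days 8 and 10, at -0.25 and -0.30. The slope of this difference, -0.14 ± 0.04 per day, did not pass (adjusted p = 0.362). Of the 9 slopes 0 passed (limma, 2 at an unadjusted p under 0.05, 0.0351% of all genes called, 0.01% higher and 0.0251% lower). The slopes of 1569 of all 19938 genes had an unadjusted p under 0.05. Cd80 was 0.61 higher with vitamin C on day 8 and between -0.17 and 0.20 on the other days. Eda2r was at -0.36 and -0.48 on days 3 and 5 and at 0.36 on day 10. In the other list 0 of 38 targets passed the vitamin C comparison (limma, 5 at an unadjusted p under 0.05). Among all 19938 genes, 2305 had an unadjusted p under 0.05 in that comparison.

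In GFP cells, where each medium had 1 array, the array with vitamin C differed from the other by 0.67 for Perp, 0.62 for Sesn1 and -0.59 for Cd80 on the log2 scale. The other 6 genes differed by -0.32 (Eda2r) to 0.21 (Bbc3). The difference from the mean SKO effect was largest for Cd80 (-0.70 ± 0.28, adjusted p = 0.697) and Perp (0.51 ± 0.35, adjusted p = 0.794). It passed for 0 of the 9 genes (limma, 1 at an unadjusted p under 0.05) and for 0% of all genes. Among all 19938 genes, 1377 had an unadjusted p under 0.05.

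**Figure D5:**
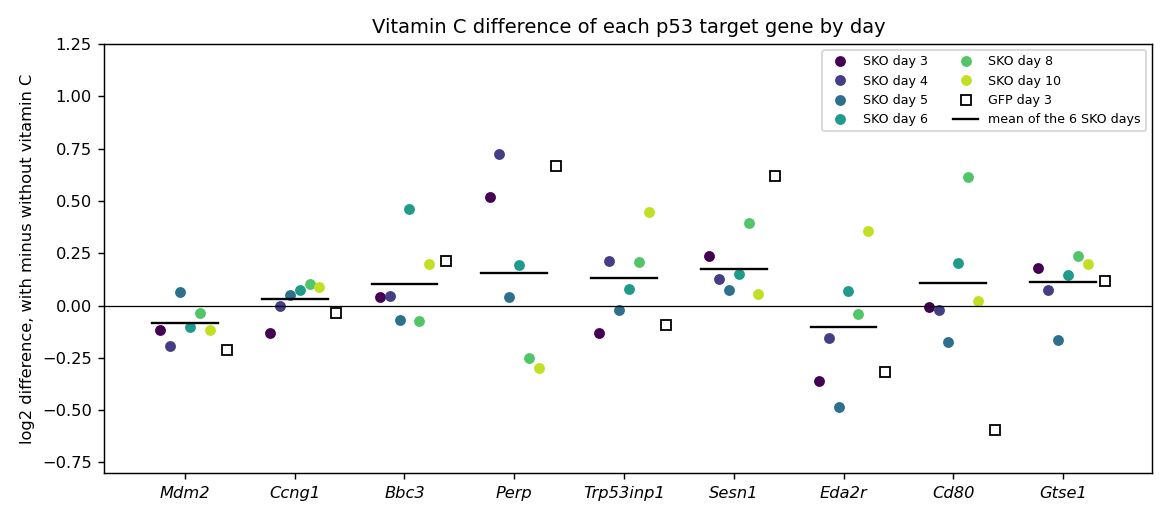
The log2 difference between arrays with and without vitamin C (vertical axis) is plotted for each of the 9 genes, with a filled point per SKO day, an open square for the GFP pair of day 3 and a line at the mean of the 6 SKO days. The means lie between -0.10 (Eda2r) and 0.17 (Sesn1), and single days spread from -0.48 to 0.73.

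Likeness of profiles over the 14 arrays is described by Pearson correlations, whose points share days and cultures and which were not tested. Ccng1 and Gtse1 had r = 0.89, and Mdm2 had 0.87 with Eda2r and 0.89 with Cd80. Sesn1 had -0.90 with Ccng1 and -0.82 with Gtse1. Perp had -0.77 with Trp53inp1, and Bbc3 had its highest value, 0.71, with Trp53inp1. Over the 12 SKO arrays alone these were -0.38 and 0.49, whereas Ccng1 with Gtse1 was 0.95, Mdm2 with Eda2r 0.92 and with Cd80 0.90, and Sesn1 with Ccng1 -0.91 and with Gtse1 -0.89. Among all 19938 genes the profiles most like Mdm2 were Tnpo3 (0.97), Lrrk2 (0.96) and Ddias (0.95), and those most like Ccng1 were Ece2 (0.98) and the muscle-type genes Acta1 and Tpm2 (both 0.97). Gtse1 was most like Loxl3 (0.94), Adssl1 (0.93) and Atic (0.92), and Cd80 most like Tmem43 (0.95). Sesn1 was most like Aldoc (0.98) and the complement genes Serping1 and C1s1 (both 0.96), Perp most like Mettl24 (0.97), Trp53inp1 most like Pawr (0.91) and Bbc3 most like Mcrip1 (0.88).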

How the data were processed

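Expression in 14 samples was measured by whole-transcript microarray; the labels' protocols give biotinylated cDNA from 100 ng of Trizol-extracted RNA. The authors deposited values taken here as log2 signals, since they run from 0.724 to 14.1. RMA and Partek are named, without versions, in the submitters' processing notes. Of 28853 probes, 21789 carried 1 symbol in the platform annotation, 1621 several and 5443 none. Current symbols came from RefSeq (GRCm38.p6) by Entrez number, and 19919 of 19938 genes matched.

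Tests used limma 3.58.1 (lmFit, eBayes) in R 4.3.3 over 19938 genes, with Benjamini-Hochberg adjustment and a threshold of 0.05. Day and vitamin C comparisons used the 12 SKO arrays, with both as terms; comparisons with GFP used all 14. Arrays of the same day deviated together across genes (r 0.248 to 0.677), and the day pairs them. The members and lists were chosen with earlier results of these data known. Named were all members, up to 4 called genes of largest difference per list and comparison, and the 3 likest profiles per member; other genes were picked with their values in view. The fits were tested on simulated data. Alternatives changed the normalization, the filter on low signals, variance moderation, array weights, probe choice, the base day, the block and the arrays included.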

Additional observations from a re-analysis of the deposited data

Results flagged for a closer look

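Of 27 sets of 6 values checked (each gene over the 6 days of the untreated SKO arrays, of the treated arrays and of their differences), 1 held a value far from the others. Eda2r was at 7.36 in the SKO array of day 3 with vitamin C, above the other 5 treated arrays, which lay between 6.19 and 6.58. The 6 arrays are different days, and chance alone marks about 1 in 20 such sets.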

How the results depend on the processing

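The counts of the 9 genes called did not move by over 1.5 times under quantile normalization, median centring or the mean of a gene's probes. Between days 10 and 3 the count of 6 became 0 with day 5 as the base, and was 5 to 6 without single arrays. Between days 8 and 4 it was 0 to 1 without single arrays, and between SKO and GFP 0 to 2. In the test of any difference between days it was 3 to 6 without single days: 3 without day 3, which ended the calls of Mdm2, Ccng1 and Eda2r, and the Ccng1 call also ended without day 4 (adjusted p = 0.0613) and without day 10 (0.165). The SKO and GFP count was 4 with the 6646 genes of lowest signal left out and 4 with an intensity trend. Between days 5 and 3, a comparison chosen after seeing the data, it was 0 in each left-out fit, 2 under median centring (Sesn1 lost) and 4 with the genes of lowest signal left out (Mdm2 added). With no replicate block, that is without pairing the arrays by day, vitamin C called 0 of the 9 genes and 4 of all genes, against 186 with it. The latter was 364 with an intensity trend and 23 to 263 without single days, lowest without day 6. Days 10 and 3 without the vitamin C term gave 6 of 9.

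Reversals of sign were as follows, and the cause was not tested. Against GFP, day 4 of the SKO cells gave -0.072 for Mdm2, 0.068 for Sesn1, -0.73 for Eda2r and -0.20 for Cd80. Between days 10 and 3, Trp53inp1 was 0.017 after quantile normalization, and Perp was -0.022 from day 5 and -0.25 from day 4, a base added after seeing the data. Without single arrays Perp ranged from -0.14 to 0.41 and Trp53inp1 from -0.20 to 0.18. For days 8 and 4 these ranges were -0.15 to 0.064 for Bbc3 and -0.11 to 0.57 for Perp. For SKO and GFP they were -0.16 to 0.017 for Ccng1 and -0.31 to 0.13 for Sesn1. For days 5 and 3 they were -0.063 to 0.37 for Perp and -0.037 to 0.28 for Trp53inp1. The GFP minus SKO vitamin C difference of Gtse1 was -0.012 after median centring and -0.051 to 0.029 without single days. Slopes were -0.0015 for Mdm2 after quantile normalization and 0.0020 for Sesn1 after median centring, with -0.0047 to 0.019 and -0.019 to 0.036 without single days. The alternation of Trp53inp1 was 0.00096 after quantile normalization, and the vitamin C difference of Cd80 was -0.053 on days 3, 5 and 10 alone, a subset added after seeing the data. Mdm2 against GFP is the single reversal of a call made in the report.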
